A study of Mus musculus with 18 samples.

Results

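The 10 genes described here encode heat shock proteins of the cytosol and mitochondria and their helpers: Hspd1, Hspe1, Hspa8, Hspa1a, Hspa1b, Hsph1, Hsp90aa1, Hspb1, Dnajb1 and Bag3. They were chosen by name, and every non-control probe whose transcript accession maps to one of these symbols was taken, which gave 15 probes of 23554 tested and 10 genes of 17721 tested. Expression was measured in mouse liver on single-colour Agilent arrays, 18 in all, in 6 groups of 3. Nrf1 (gene symbol Nfe2l1) and Nrf2 (Nfe2l2) are related transcription factors, and Keap1 is the adaptor that directs Nrf2 to degradation. Nrf1 CKO livers were Nrf1(dN/-)::Alb-Cre, a conditional knockout with Cre recombinase under the albumin promoter, a promoter of hepatocytes. What the dN allele is, the labels do not give. Their controls were Nrf1(dN/+), carry the dN allele too and list no Cre, so that loss of Nrf1 and presence of Cre cannot be told apart. Nrf2 KO livers were Nrf2(-/-), with Nrf2(+/+) controls. Keap1 KD livers were Keap1(Kd/-), with Keap1(Kd/+) controls that also carry a knockdown allele. All mice were female and 6 weeks old, of C57BL/6 strain in both Nrf2 groups and of mixed strain in the other 4 groups. Whether the 3 samples of each group are separate animals is not labelled, so p-values measure only the spread between these samples.

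Heat shock proteins are molecular chaperones that help other proteins fold. HSP70 proteins (Hspa8, Hspa1a, Hspa1b) bind unfolded stretches with the help of J-domain proteins (Dnajb1) and nucleotide exchange factors (Hsph1, Bag3), HSP90 (Hsp90aa1) completes the folding of kinases and receptors, the small heat shock protein Hspb1 keeps unfolded proteins soluble, and HSP60 with HSP10 (Hspd1, Hspe1) form the folding chamber of the mitochondrial matrix. Upon heat or loss of proteasome activity, heat shock factor 1 (Hsf1) binds heat shock elements in the promoters of these genes and raises their transcription, so that in liver they are read as a sign of unfolded protein load.

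The sequences just before the transcription start are shown because they carry these elements and because they show how close some of the 10 genes are. They are from RefSeq (GRCm38.p6), bases -150 to -1, 5′ to 3′ on the strand of the gene. Capitals mark a heat shock element, searched as GAANNTTC or TTCNNGAA, 2 neighbouring units with N for any base. Both patterns read the same on the other strand.
Hspa1a, chr17:34972157-34972306, minus strand: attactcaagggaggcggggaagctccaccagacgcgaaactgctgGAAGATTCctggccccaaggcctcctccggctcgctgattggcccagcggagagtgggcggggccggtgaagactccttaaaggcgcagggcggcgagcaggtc
Hspa1b, chr17:34959239-34959388, minus strand: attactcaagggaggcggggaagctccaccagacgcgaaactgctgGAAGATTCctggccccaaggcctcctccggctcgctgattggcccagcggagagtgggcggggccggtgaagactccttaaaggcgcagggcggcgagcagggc
Hspb1, chr5:135887769-135887918, plus strand: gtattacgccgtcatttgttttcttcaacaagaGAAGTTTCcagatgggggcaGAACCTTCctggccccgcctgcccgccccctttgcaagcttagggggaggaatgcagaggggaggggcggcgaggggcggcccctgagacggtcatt
Hsph1, chr5:149636337-149636486, minus strand: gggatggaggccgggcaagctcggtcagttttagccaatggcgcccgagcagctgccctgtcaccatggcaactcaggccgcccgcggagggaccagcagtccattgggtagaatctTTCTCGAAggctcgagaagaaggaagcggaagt
Hspe1, chr1:55087998-55088147, plus strand: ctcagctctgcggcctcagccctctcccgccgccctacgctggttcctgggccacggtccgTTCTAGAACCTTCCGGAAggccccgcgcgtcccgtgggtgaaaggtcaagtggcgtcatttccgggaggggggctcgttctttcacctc

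Of the 10 genes, 8 had a window of 300 bases around the start (250 before it and 50 from it). For Hspa8 and Hsp90aa1 no window was available here. A 2-unit element lay in a window of 7 of the 8 genes, all but Dnajb1, against 17% of all 27025 genes with a window. A run of 3 units (GAANNTTCNNGAA or TTCNNGAANNTTC) lay in windows of Hspd1, Hspe1 and Hsph1, against 0.662% of all genes. The upstream stretches of Hspa1a and Hspa1b, neighbours on chromosome 17, differed at 1 of 150 bases, and their element lay at -104 to -97 in both. A matching stretch of letters describes the sequence and is no evidence of binding in these livers.

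Hspd1 and Hspe1 lie head to head on chromosome 1. The element of Hspe1 at -89 to -72, 18 bases long, is also in the window of the second listed start of Hspd1, where it reads on the other strand as follows, from -150 to -121 of that start (chr1:55088053-55088082, minus strand). The window of the first listed start of Hspd1 held no heat shock element. The element found for Hspd1 is thus the same bases as that of Hspe1.
Hspd1: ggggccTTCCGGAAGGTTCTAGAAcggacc

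As a check of the labels, Nfe2l1 was well above background on 0 of 3 Nrf1 CKO arrays and on 3 of 3 control arrays, and Nfe2l2 on 1 of 3 Nrf2 KO arrays and on 3 of 3 control arrays. Keap1 was 2.39 lower on the log2 scale in Keap1 KD livers than in their controls (SE 0.31, adjusted p = 0.00123). Of 12 hepatocyte markers 11 were tested, and all 11 were well above background on all 18 arrays, as the tissue label asks. Between 21668 and 28213 of 43379 non-control spots per array were well above background, and the number of arrays limits the precision. For the probe used for each of the 10 genes this held on 18 of 18 arrays, with no saturated spot, so none of them entered through a single bright group. Over all genes, limma called 3364 in Nrf1 CKO (19% of 17721), 11 in Nrf2 KO (0.0621%) and 984 in Keap1 KD (5.55%) at an adjusted p under 0.05. In Nrf1 CKO 1410 were higher and 1954 lower, against 1469 and 1358 after quantile normalization; in Keap1 KD 171 were higher and 813 lower, against 355 and 364 when arrays were centred on their median, which moved the median of all genes there to 0.3. Levels are log2 signals minus the log2 75th percentile of their array, and compared only between arrays for the same probe.

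Hspd1, the HSP60 subunit of the mitochondrial chaperonin, fell in Nrf1 CKO livers and was the only one of the 10 genes called in a mutant against its control in this fit. Its log2 level was 7.06, 6.85 and 6.76 in Nrf1 CKO livers, against 7.86, 7.72 and 7.54 in their controls. Every Nrf1 CKO liver lay below every control. The means were 6.89 ± 0.15 in Nrf1 CKO livers and 7.7 ± 0.16 in controls (SD, n = 3 each), a log2 difference of -0.81 (SE 0.18, 95% interval -1.2 to -0.43, adjusted p = 0.00868), or 0.569 times the control level. That 1 of the 10 genes was called lower compares with 11% of all genes tested. In livers taken whole, fewer hepatocytes and less RNA per hepatocyte cannot be told apart.

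A separate probe for Hspd1 gave the same picture. Its log2 level was 2.65, 2.36 and 2.42 in Nrf1 CKO livers, against 3.49, 3.33 and 3.25 in controls, again with no overlap. The difference was -0.88 (SE 0.16, adjusted p = 0.00284 in a fit over all 23554 probes).

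Across the 6 groups the mean log2 level of Hspd1 ran from 6.89 ± 0.15 in Nrf1 CKO livers to 7.43 ± 0.11 in Nrf2 control, 7.44 ± 0.08 in Nrf2 KO, 7.58 ± 0.28 in Keap1 control, 7.69 ± 0.34 in Keap1 KD and 7.7 ± 0.16 in Nrf1 control livers (SD, n = 3 each). Neighbouring groups in this order overlapped in their arrays, except Nrf1 CKO, which lay below all 15 other arrays. The log2 levels were 7.53, 7.39 and 7.4 in Nrf2 KO livers, against 7.4, 7.55 and 7.34 in their controls (log2 difference 0.01, 95% interval -0.38 to 0.4). The separate probe differed by 0.31 in Nrf2 KO livers (95% interval -0.02 to 0.64, adjusted p = 0.589 over all probes), all 3 above their controls. In Keap1 KD livers it differed by 0.12 (95% interval -0.21 to 0.45). On the probe used for the gene, the levels were 8.06, 7.58 and 7.41 in Keap1 KD livers, against 7.75, 7.73 and 7.25 in their controls (log2 difference 0.11, 95% interval -0.28 to 0.5). The effect of Nrf1 CKO was thus 0.92 below that of Keap1 KD (SE 0.26, adjusted p = 0.044), the only one of the 10 genes called in a difference between effects, where 3.42% of all genes were called lower and 6.96% in either direction. It was 0.82 below that of Nrf2 KO (SE 0.26, adjusted p = 0.0699), which did not pass. Of 27 values recomputed under other settings or without an array, the difference from Nrf2 KO passed in 5 (limma adjusted p down to 0.00204). The difference from Keap1 KD lost its call in 14 of 27.

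The difference between the Nrf1 CKO and Keap1 KD effects was close to the threshold. It ranged from -1.06 to -0.74 when single arrays were left out, and did not pass without replicate 2 or 3 of Nrf1 CKO, 1 or 2 of Nrf1 control, 1 or 2 of Keap1 KD, or 2 or 3 of Keap1 control. After quantile normalization it was -0.34 (adjusted p = 0.238). For the difference between the Nrf1 CKO and Nrf2 KO effects limma called 0 of the 10 genes, with 1 at an unadjusted p under 0.05, where 5.6% of all genes were called. For that between the Nrf2 KO and Keap1 KD effects it called 0, with 0 at an unadjusted p under 0.05, where 3.08% of all genes were called.

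How far Hspd1 differed depended on how the arrays were scaled. In Nrf1 CKO livers the brightest 5% of genes had a median log2 difference of -0.47, against 0.04 for the dimmer 50%, and the brighter Hspd1 probe stood at percentile 98.5 of brightness. With quantile normalization, which makes the distributions of the arrays equal, the median of the brightest 5% became 0.01 and the difference of Hspd1 -0.29 (SE 0.11, adjusted p = 0.0946). The dimmer Hspd1 probe kept -0.76 there (adjusted p = 0.00269), and with background correction by normexp before quantile normalization the probes gave -0.36 (adjusted p = 0.0433) and -0.7 (adjusted p = 0.000774), adjusted over all probes. All 3 Nrf1 CKO arrays lay on a slide that held only 1 of their control arrays. On that slide alone the difference was -0.65. With slide as a block it was -0.65 (SE 0.24, adjusted p = 0.23) and, for the other probe, -0.78 (adjusted p = 0.183). Without Nrf1 CKO replicate 3 it was -0.75 (adjusted p = 0.052).

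**Figure D1:**
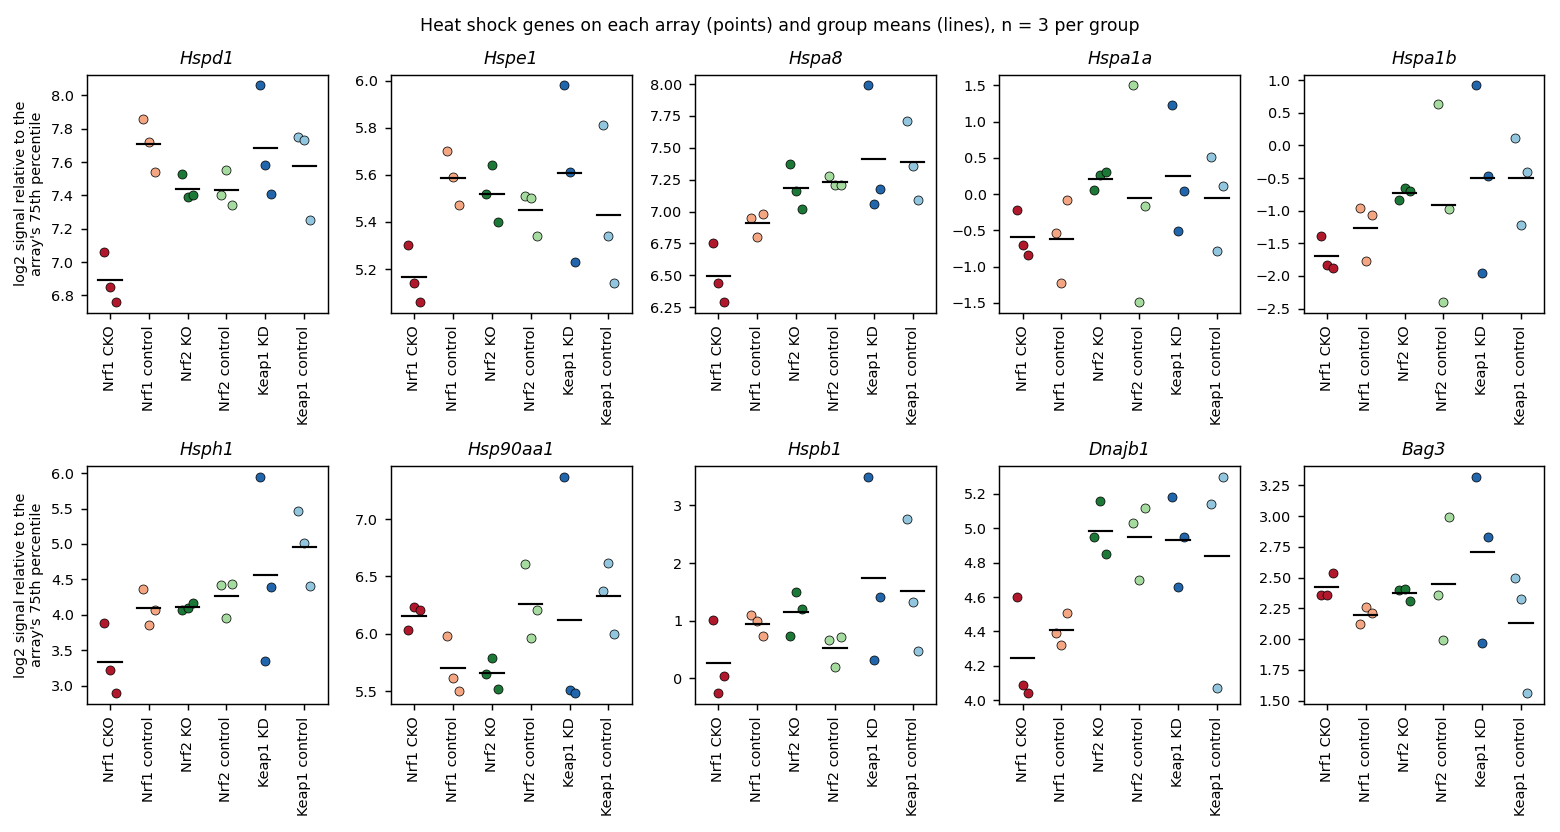
Log2 level, signal over the 75th percentile of the array (vertical axis, own range per panel), of the 10 genes on each of the 18 arrays (points) by group, each mutant left of its control, with group means as lines (n = 3). For Hspd1 the 3 Nrf1 CKO points, between 6.76 and 7.06, lie below all others, while the Keap1 KD points of Hspb1 spread from 0.31 to 3.5.

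Hspe1 encodes HSP10, the lid of the HSP60 chamber, and stood below its controls without passing the test. Its log2 level was 5.3, 5.14 and 5.06 in Nrf1 CKO livers, against 5.7, 5.59 and 5.47 in controls. The 2 groups did not overlap, but the difference of -0.42 (SE 0.2, 95% interval -0.84 to -0.01) had an adjusted p of 0.139, and it was -0.05 after quantile normalization. Hspe1 in Nrf2 KO livers was at 5.52, 5.64 and 5.4, against 5.51, 5.5 and 5.34 in controls, and in Keap1 KD livers at 5.98, 5.61 and 5.23, against 5.81, 5.34 and 5.14 in controls. Both pairs overlapped, with differences of 0.07 (95% interval -0.34 to 0.49) and 0.17 (95% interval -0.24 to 0.59). The window of Hspe1 and that of the second listed start of Hspd1 share the element printed above. Over the 18 arrays the levels of Hspd1 and Hspe1 had a Pearson correlation of 0.84, and of 0.84 after each group's mean was subtracted. The arrays share their scaling and labelling, so this is a description.

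Hspa8, the constitutive HSP70 of the cytosol, was at 6.75, 6.44 and 6.29 in Nrf1 CKO livers, against 6.95, 6.8 and 6.98 in controls. The groups did not overlap, and the log2 difference was -0.42 (SE 0.22, adjusted p = 0.202). The other Hspa8 probe gave 4.95, 4.53 and 4.5 in Nrf1 CKO livers, against 5.58, 5.25 and 5.09 in controls. Its difference was -0.65 (SE 0.24, adjusted p = 0.0673). After quantile normalization the probes differed in sign, at 0.12 and -0.34, so that no direction can be given for Hspa8. Hspa8 in Nrf2 KO livers was at 7.37, 7.16 and 7.02, against 7.28, 7.21 and 7.21 in controls, and in Keap1 KD livers at 7.99, 7.06 and 7.18, against 7.71, 7.36 and 7.09 in controls, with differences of -0.05 (95% interval -0.53 to 0.42) and 0.02 (95% interval -0.46 to 0.5).

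Hspa1a and Hspa1b encode the stress-inducible HSP70, and none of the mutants differed from its control beyond the spread between arrays. In Nrf1 CKO livers Hspa1a was at -0.22, -0.71 and -0.84, against -0.54, -1.23 and -0.08 in controls, and Hspa1b at -1.39, -1.83 and -1.88, against -0.96, -1.77 and -1.06. The differences were 0.02 (95% interval -1.26 to 1.3) and -0.43 (95% interval -1.88 to 1.01), so a change of more than 2-fold in either direction lies within the intervals. The fit shares the spread of a gene over all groups, so these intervals also reflect the spread in the other lines. Hspa1a in Nrf2 KO livers was at 0.06, 0.26 and 0.31, against 1.5, -1.49 and -0.17 in controls. The 3 controls spanned 3 log2 units and the 3 knockouts 0.25, and Hspa1b did the same, with spans of 3.03 and 0.18. Hspa1a in Keap1 KD livers was at 1.23, -0.51 and 0.04, against 0.51, -0.79 and 0.11 in controls, and Hspa1b at 0.92, -1.96 and -0.47, against 0.12, -1.22 and -0.41. The genes tracked each other, with a correlation of 0.96 between their deviations from group means. Whether their probes tell transcripts of the 2 genes apart was not tested. A weaker probe for Hspa1b was above background on 9 of 18 arrays.

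Hsph1, Dnajb1 and Bag3, whose proteins help HSP70, were not called in any mutant in this fit. Over all genes 19% were called in Nrf1 CKO, 0.0621% in Nrf2 KO and 5.55% in Keap1 KD. Hsph1, the HSP110 exchange factor, was at 3.89, 3.22 and 2.89 in Nrf1 CKO livers, against 4.37, 3.85 and 4.07 in controls. Replicate 1 of Nrf1 CKO overlapped the controls and the other 2 lay below them, with a difference of -0.76 (SE 0.47, adjusted p = 0.269). In Keap1 KD livers it ranged from 3.35 to 5.95, against 4.41 to 5.47 in controls, and in Nrf2 KO livers from 4.07 to 4.17, against 3.95 to 4.44. Dnajb1, the main J-domain partner of inducible HSP70, was at 4.6, 4.09 and 4.04 in Nrf1 CKO livers, against 4.39, 4.32 and 4.51 in controls. Its difference was -0.16 (SE 0.27, adjusted p = 0.704), and those in Nrf2 KO and Keap1 KD livers were 0.04 and 0.09 (SE 0.27 each). The other Dnajb1 probe was at 1.3, 0.81 and 0.76 in Nrf1 CKO livers, against 1.53, 1.19 and 1.56 in controls. Its differences were -0.47 in Nrf1 CKO (adjusted p = 0.202), 0.29 in Nrf2 KO and -0.2 in Keap1 KD livers (SE 0.25 each). The 2 probes differed in sign in Keap1 KD livers and, after quantile normalization, in Nrf1 CKO livers (0.11 and -0.41), so no direction can be given for Dnajb1. Bag3, which links HSP70 to autophagy, was at 2.36, 2.36 and 2.54 in Nrf1 CKO livers, against 2.12, 2.26 and 2.21 in controls. All 3 lay above the controls, but by 0.23 (SE 0.31, adjusted p = 0.651). Bag3 in Keap1 KD livers was at 3.32, 1.97 and 2.83, against 2.5, 2.33 and 1.56 in controls, a difference of 0.58 (SE 0.31, 95% interval -0.09 to 1.25, adjusted p = 0.392).

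Hsp90aa1, the inducible HSP90 of the cytosol, stood on opposite sides of its controls in Nrf1 CKO and Nrf2 KO livers, and passed the test in neither. In Nrf1 CKO livers it was at 6.03, 6.23 and 6.21, against 5.98, 5.61 and 5.5 in controls, all above the controls by a mean of 0.46 (SE 0.38, adjusted p = 0.408). In Nrf2 KO livers it was at 5.65, 5.79 and 5.52, against 6.61, 5.96 and 6.21 in controls, all below them by a mean of 0.61 (log2 difference -0.61, SE 0.38, adjusted p = 0.695). The difference between these effects was 1.07 (SE 0.53, adjusted p = 0.235). Of 27 values recomputed under other settings, 2 passed the test, with limma adjusted p down to 0.0278. These were with the arrays of the 2 lines alone and with array weights. In Nrf1 CKO livers the difference of Hsp90aa1 shifted upward with the scaling, as that of Hspd1 did. Hspd1 thereby became less negative, at -0.29 after quantile normalization, and Hsp90aa1 more positive, at 0.95 (adjusted p = 0.0629 over all probes). After normexp and quantile normalization Hsp90aa1 was at 1, where it passed the test (adjusted p = 0.044). In Keap1 KD livers Hsp90aa1 was at 7.37, 5.51 and 5.48, against 6.37, 6.62 and 6 in controls. Without Keap1 KD replicate 1 the difference there was -0.84 (SE 0.22, adjusted p = 0.0551), against -0.21 (SE 0.38) with it.

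Hspb1, the small heat shock protein HSP27 of human cells and HSP25 of mice, was at 1.02, -0.26 and 0.04 in Nrf1 CKO livers, against 1.1, 0.99 and 0.73 in controls (log2 difference -0.68, SE 0.65, adjusted p = 0.491). In Nrf2 KO livers it was at 0.74, 1.49 and 1.2, against 0.66, 0.19 and 0.72 in controls, with no overlap and a difference of 0.62 (SE 0.65, adjusted p = 0.854). In Keap1 KD livers it was at 3.5, 0.31 and 1.41, against 2.76, 1.33 and 0.47 in controls. The values of a group there lay up to 3.19 log2 units apart, more than any group difference of the 10 genes.

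**Figure D2:**
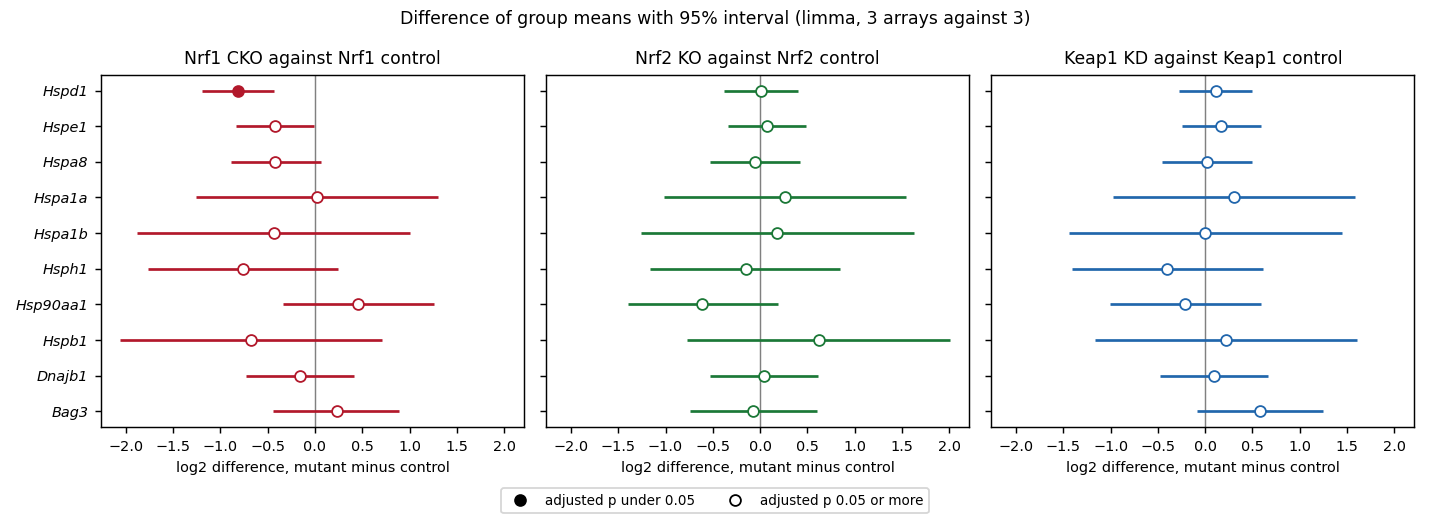
Log2 difference of group means, mutant minus control (horizontal axis), for the 10 genes in the 3 comparisons, with 95% intervals from limma. Hspd1 in Nrf1 CKO livers, at -0.81, is the only filled point (adjusted p under 0.05), and the intervals of Hspa1a, Hspa1b and Hspb1 are the widest.

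Taken as a group, 7 of the 10 genes had a log2 difference below 0 in Nrf1 CKO livers, where 57.5% of all genes did, with a median of -0.42 against -0.09 over all genes. The median of the 10 genes was -0.03 after quantile normalization and -0.05 after normexp and quantile normalization. Groups did not overlap for 5 of the 10 genes, where 43.5% of all genes had no overlap. At an unadjusted p under 0.05 there were 2, Hspd1 and Hspe1, while 19% of all genes passed even at the adjusted threshold. The share of all genes at an unadjusted p under 0.05 was not computed in any comparison. For Nrf2 KO limma called 0 of the 10 genes, where 0.0621% of all genes were called, and 0 had an unadjusted p under 0.05. There 4 lay below 0, where 49.2% of all genes did, the median difference was 0.02 (0.01 over all genes) and the groups did not overlap for 2, Hsp90aa1 and Hspb1, where 20.8% of all genes had no overlap. Nrf2 KO and Nrf2 control arrays shared no slide and no scan date, so batch and genotype cannot be told apart there. For Keap1 KD limma also called 0, where 5.55% of all genes were called, and 0 had an unadjusted p under 0.05. There 2 lay below 0 (49.7% of all genes) and the median was 0.1 (0 over all genes). The groups overlapped for every one of the 10 genes, where 17% of all genes had no overlap.

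Single arrays carried much of the variation. On Keap1 KD replicate 1 all 10 genes lay above the mean of their group, by a median of 0.8 log2 units and by up to 1.76 for Hspb1, and on Keap1 KD replicate 2 only 1 did, Hspe1, by a deviation that rounds to 0, with a median of -0.67 and a lowest value of -1.46 for Hspa1b. On Keap1 control replicate 1 all 10 lay above their group's mean as well, by a median of 0.38. The median deviation of all genes was 0.029, 0.035 and 0.011 on these 3 arrays. Without Keap1 KD replicate 1, 9 of the 10 genes had a difference below 0 in Keap1 KD livers and their median was -0.22. Without Keap1 KD replicate 2, none did and the median was 0.22. The 2 arrays lay on the same slide. On Keap1 KD replicate 1 the median deviation of 15 endoplasmic reticulum chaperones was 0.53, that of 24 further heat-inducible targets of Hsf1 was 0.43, that of 11 hepatocyte markers was 0.3, that of 13 proliferation genes was -0.64 and that of 15 circadian clock genes was -0.58. The part of these in the spread was not tested.

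**Figure D3:**
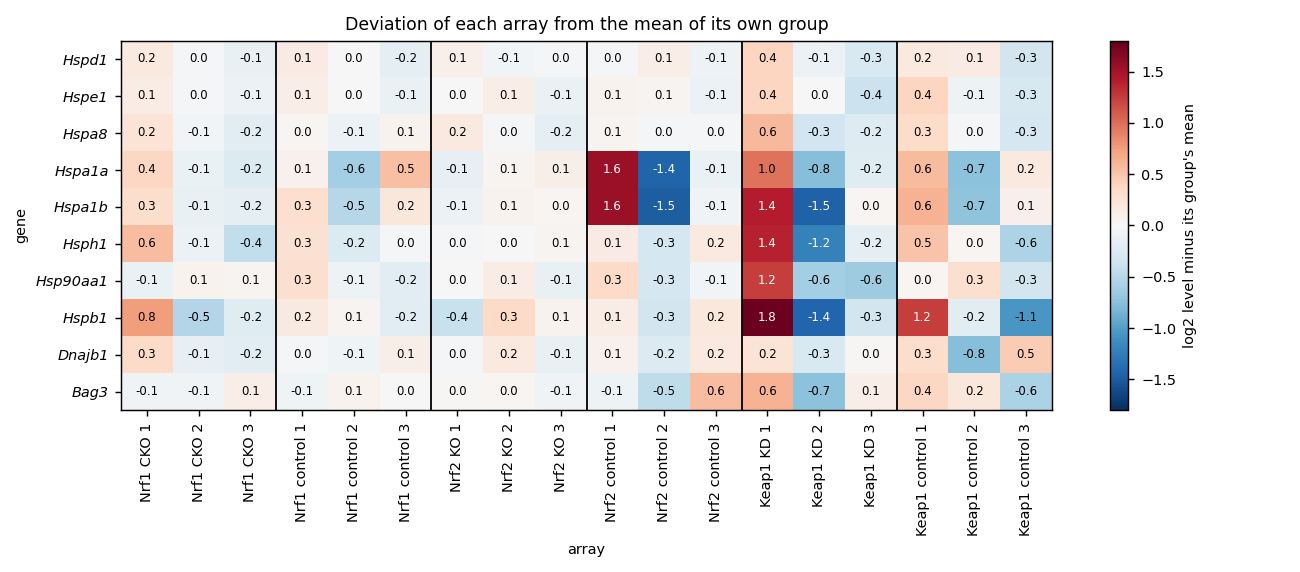
Log2 level of each gene on each array minus the mean of that array's group (colour and printed value), arrays ordered by group with each mutant left of its control. Keap1 KD replicate 1 is above its group's mean for all 10 genes, and Nrf2 control replicates 1 and 2 stand on opposite sides for Hspa1a and Hspa1b.

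The 10 genes differed widely in their spread within groups. The residual SD was 0.92 for Hspa1b, 0.88 for Hspb1, 0.81 for Hspa1a and 0.63 for Hsph1, at percentiles 97.7, 97.2, 96.1 and 90.3 of all genes, where the median gene had 0.31. It was 0.5 for Hsp90aa1, 0.41 for Bag3 and 0.34 for Dnajb1, at percentiles 80.3, 69.4 and 57.5. It was 0.21 for Hspd1, 0.23 for Hspe1 and 0.27 for Hspa8, at percentiles 23, 29.6 and 42.4. The range of a gene within a group had a median over the 10 genes of 1.54 in Keap1 KD and 1 in Keap1 control livers, of 0.25 in Nrf2 KO and 0.51 in Nrf2 control livers, and of 0.47 in Nrf1 CKO and 0.34 in Nrf1 control livers. Among the 45 pairs of the 10 genes the correlation of deviations from group means over 18 arrays had a median of 0.61 and was over 0.5 for 31. Hsph1 and Hspb1 (0.93), Hsph1 and Hspa8 (0.9) and Hspa8 and Hspb1 (0.86) were close. Dnajb1 had 0.61 with Hspa1a and 0.6 with Hspa1b, but 0.08 with Hsp90aa1, 0.14 with Bag3 and -0.09 with Hspd1, the 1 pair below 0. Hspd1 was also low with Hspa1a (0.11) and Hspa1b (0.22). Arrays share depth of labelling and slide, so these are descriptions.

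Of 12824 other genes with a symbol, the 6 whose levels over 18 arrays were most like the mean standardized level of the 10 genes were Stip1 (r = 0.894), which joins HSP70 to HSP90, Mrpl34 (0.894), a mitochondrial ribosomal protein, Ahsa1 (0.873), which activates HSP90, Wbp1l (0.864), Rbm8a (0.861) and Cacybp (0.849). After group means were subtracted they were Vma21 (0.939), Slc25a33 (0.93), Ube2k (0.921), Stip1 (0.919), St13 (0.918), which binds HSP70, and Sigirr (0.909). Stip1 was in both. Stip1 differed by -0.18 in Nrf1 CKO, -0.18 in Nrf2 KO and -0.27 in Keap1 KD livers (SE 0.28 each), none of which passed the test. Called lower in Nrf1 CKO livers were Wbp1l (-0.81, adjusted p = 0.0268), Slc25a33 (-1.21, adjusted p = 0.0417) and Sigirr (-0.64, adjusted p = 0.0425).

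Hsf1, the factor that drives these genes, was at 1.83, 1.65 and 1.64 in Nrf1 CKO livers, against 2.07, 2.07 and 1.91 in controls. The groups did not overlap, but the difference of -0.31 (SE 0.17) had an adjusted p of 0.217. In Nrf2 KO livers it was 0.12 and in Keap1 KD livers -0.01 (SE 0.17 each). Levels of Hsf1 RNA say nothing of its activity, which is set after translation.

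Other chaperone genes were counted in 10 lists with 116 measured genes between them. In Nrf1 CKO livers 18 were called lower and 8 higher, where 11% and 7.96% of all genes were, and 49 had an unadjusted p under 0.05. In Nrf2 KO livers limma called 0, where 0.0621% of all genes were called, with 6 at an unadjusted p under 0.05. In Keap1 KD livers it called 1 lower, Dnaja4 (log2 difference -0.77, SE 0.21, adjusted p = 0.0495), a J-domain protein, where 5.55% of all genes were called. There 12 had an unadjusted p under 0.05. The call of Dnaja4 was lost after quantile normalization, with or without normexp, with centring on the median and with slide as a block.

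The mitochondrial list is the nearest to Hspd1 and Hspe1. Of its 21 measured genes for chaperones, import and proteolysis, 6 fell in Nrf1 CKO livers and 0 rose, with a median of -0.36. Over all genes 11% were called lower and 7.96% higher, with a median of -0.09. Tomm70a, an import receptor, fell by 0.8 on the log2 scale (SE 0.18, adjusted p = 0.00899), Tomm22, another subunit of the outer-membrane import complex, by 0.72 (adjusted p = 0.0237) and Afg3l2, a subunit of an inner-membrane protease, by 0.71 (adjusted p = 0.0309). Timm50, part of the inner-membrane translocase, fell by 0.62 (adjusted p = 0.0285). Hspa9, the HSP70 of the mitochondrial matrix, fell by 0.58 (SE 0.18, adjusted p = 0.0393), and its exchange factor Grpel1 by 0.55 (SE 0.14, adjusted p = 0.0186). Like the brighter Hspd1 probe, Hspa9 and Grpel1 depended on the scaling and stood at -0.07 and -0.03 after quantile normalization. There 2 genes of the list were called lower, Tomm70a (-0.56, adjusted p = 0.0401) and Afg3l2 (-0.66, adjusted p = 0.0475), and 1 higher. With slide as a block 0 were.

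Of 24 further heat-inducible targets of Hsf1, 2 fell and 2 rose in Nrf1 CKO livers, close to the 11% and 7.96% of all genes, and 17 lay below 0. Hspb8, a small heat shock protein that works with Bag3, fell by 1.12 (SE 0.22, adjusted p = 0.0048), and Tcp1, a subunit of the cytosolic chaperonin TRiC, by 0.55 (adjusted p = 0.0299). Serpinh1, the collagen chaperone of the endoplasmic reticulum, rose by 0.81 (SE 0.24, adjusted p = 0.0307) and Zfand2a, a stress-induced proteasome partner, by 0.72 (SE 0.15, adjusted p = 0.00548). Beside Serpinh1, 11 of 12 stellate cell markers rose, and their summed log2 level was 7.07 to 7.58 in Nrf1 CKO livers, against 6.46 to 6.84 in controls; its part in the change of Serpinh1 was not tested. Hspb8, Serpinh1 and Zfand2a stayed called after quantile normalization, at -0.91, 1.06 and 0.8. With arrays centred on their median Serpinh1 (0.7, adjusted p = 0.104) and Zfand2a (0.62, adjusted p = 0.06) did not pass. With slide as a block no gene of the 10 chaperone lists was called, Hspb8 (-0.79, adjusted p = 0.206), Serpinh1 (0.64, adjusted p = 0.411) and Zfand2a (0.75, adjusted p = 0.201) among them.

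Of 19 HSP90 proteins and partners, Ptges3 (p23) fell by 0.76 (adjusted p = 0.0102), Fkbp5, which is induced by glucocorticoids, fell by 1.77 (SE 0.5, adjusted p = 0.0252), and Unc45a, a myosin chaperone, rose by 1.01 (adjusted p = 0.0205). Of 31 J-domain genes 6 fell and 3 rose, where 11% of all genes were called lower and 7.96% higher. Among them were Dnajb6 (-0.96, adjusted p = 0.0148), Dnajc9 (0.93, adjusted p = 0.00224), a histone chaperone, Sec63 (0.86, adjusted p = 0.00525), of the endoplasmic reticulum translocon, and Dnajc17 (0.75, adjusted p = 0.0314). Beside Dnajc9, 11 of 13 proliferation genes rose, with a summed log2 level of 6.15 to 6.92 in Nrf1 CKO livers, against 4.72 to 5.16 in controls, and their part in its change was not tested. Sec63 went to -0.05 with normexp and quantile normalization. Of the TRiC subunits 2 of 9 fell, Tcp1 and Cct4 (-0.51, adjusted p = 0.0274), and 0 of 9 were called after quantile normalization. Of 6 prefoldin subunits 0 were called.

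Of 9 BAG proteins and exchange factors Grpel1 and Bag4 (-0.49, adjusted p = 0.0482) fell, and of 8 other HSP70 and HSP110 genes Hspa9 did. Of 7 small heat shock genes Hspb8 fell and Hspb2 rose (0.93, adjusted p = 0.0157, with overlapping arrays). Of 4 heat shock factors and their binding proteins Hsbp1l1 rose (1.1, adjusted p = 0.0499), a call lost after quantile normalization (1.03, adjusted p = 0.0654), normexp and quantile normalization (0.49, adjusted p = 0.119) and centring on the median (1, adjusted p = 0.052). Of 15 endoplasmic reticulum chaperones Sil1, an exchange factor, fell (-0.45, adjusted p = 0.0477), while 2 were called higher and 0 lower after quantile normalization.

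**Figure D4:**
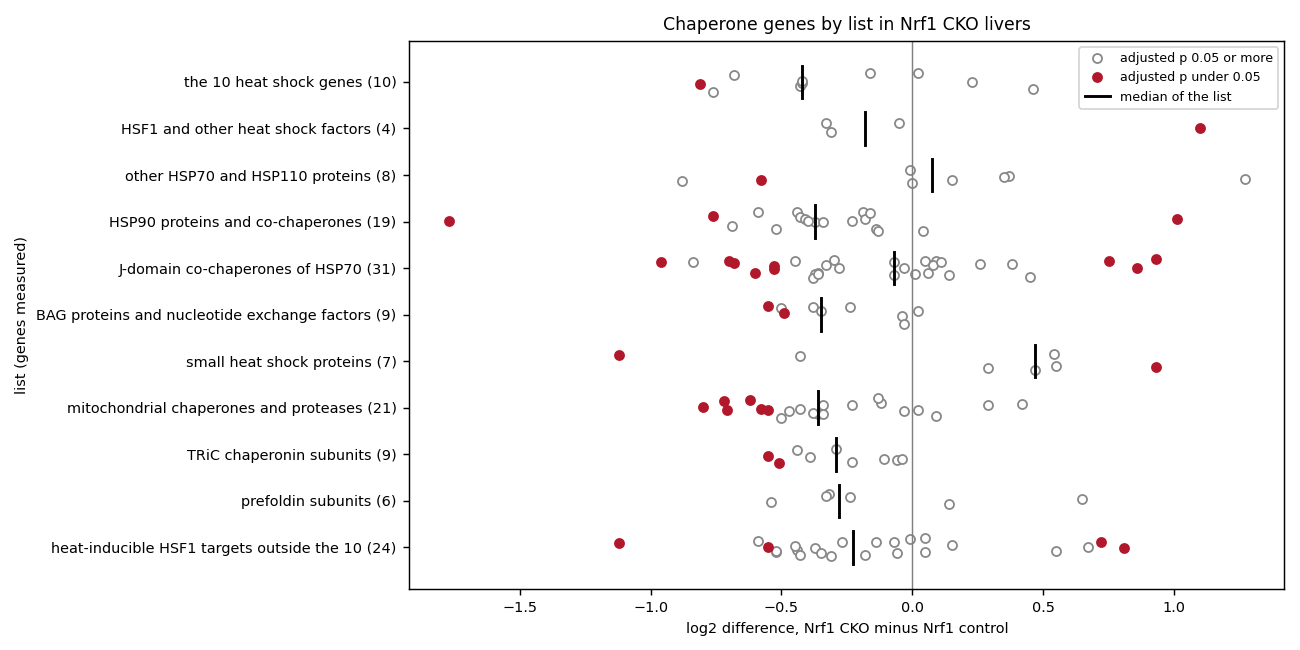
Log2 difference, Nrf1 CKO minus Nrf1 control (horizontal axis), of each measured gene of the 10 heat shock genes and of 10 other chaperone lists, filled where the adjusted p is under 0.05, with the list's median as a bar. The mitochondrial list has 6 filled points, all below 0, and some genes stand in more than 1 list.

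Loss of proteasome activity induces the heat shock genes in cultured cells. Of 36 genes for proteasome subunits and associated factors (Psmd5, Psmd9, Psmd10 and Psme4), 24 were called lower in Nrf1 CKO livers and 0 higher. Their median was -0.61, against -0.09 over all genes, of which 11% were called lower. Of the 10 heat shock genes 0 were called higher there, where 7.96% of all genes were, and 1, Hsp90aa1, with normexp and quantile normalization. These are RNA levels of the listed genes, proteasome activity was not measured, and a link between the 2 results was not tested. Psmc6, Psmd12 and Psma5 each fell by 0.93 (adjusted p = 0.00601, 0.00445 and 0.0014) and Psmc2 by 0.91 (adjusted p = 0.00797). After quantile normalization 12 of 36 were called lower. In Keap1 KD livers Psmb5 rose by 0.63 (adjusted p = 0.046). Immediate early genes, another stress-induced group, had 5 of 13 called higher in Nrf1 CKO livers, where 7.96% of all genes were. They were led by Atf3 (3.42, adjusted p = 4.14e-05), Nr4a1 (2.35, adjusted p = 0.0132), Fos (2, adjusted p = 0.00974) and Jun (1.51, adjusted p = 0.000363). With slide as a block 0 of the 36 proteasome genes were called, with a median of -0.52, and Psmc6, Psmd12, Psma5 and Psmc2 had adjusted p from 0.161 to 0.272. Of the immediate early genes 1 was, Atf3 (3.48, adjusted p = 0.00623), while Nr4a1 was at 2.71 (adjusted p = 0.176), Fos at 2.05 (adjusted p = 0.23) and Jun at 1.38 (adjusted p = 0.0958).

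Markers of liver cell types moved in Nrf1 CKO livers beside the values above, where 11% of all genes were called lower and 7.96% higher. Of 11 hepatocyte markers 5 fell, and their summed log2 level was 11.16 to 11.66 in Nrf1 CKO livers, against 11.9 to 12.13 in controls. Of 11 Kupffer cell and macrophage markers 5 rose and 1 fell, with a summed log2 level of 7.55 to 8.65 in Nrf1 CKO livers, against 6.61 to 7.53 in controls. After quantile normalization 2 of the 11 hepatocyte markers were called lower. The hepatocyte sum in Nrf2 KO livers was 11.86 to 12.19, against 11.99 to 12.13 in controls, and in Keap1 KD livers 11.68 to 12.25, against 11.77 to 12.24. Of 10 sinusoidal endothelial markers 1 fell, of 7 cholangiocyte markers 1 rose, of 8 lymphocyte markers 1 rose and of 5 neutrophil markers 0 were called in Nrf1 CKO livers. Of 15 circadian clock genes 2 fell there, and of 2 cold-inducible genes 0 were called. The part of these genes in the fall of Hspd1 was not tested.

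**Figure D5:**
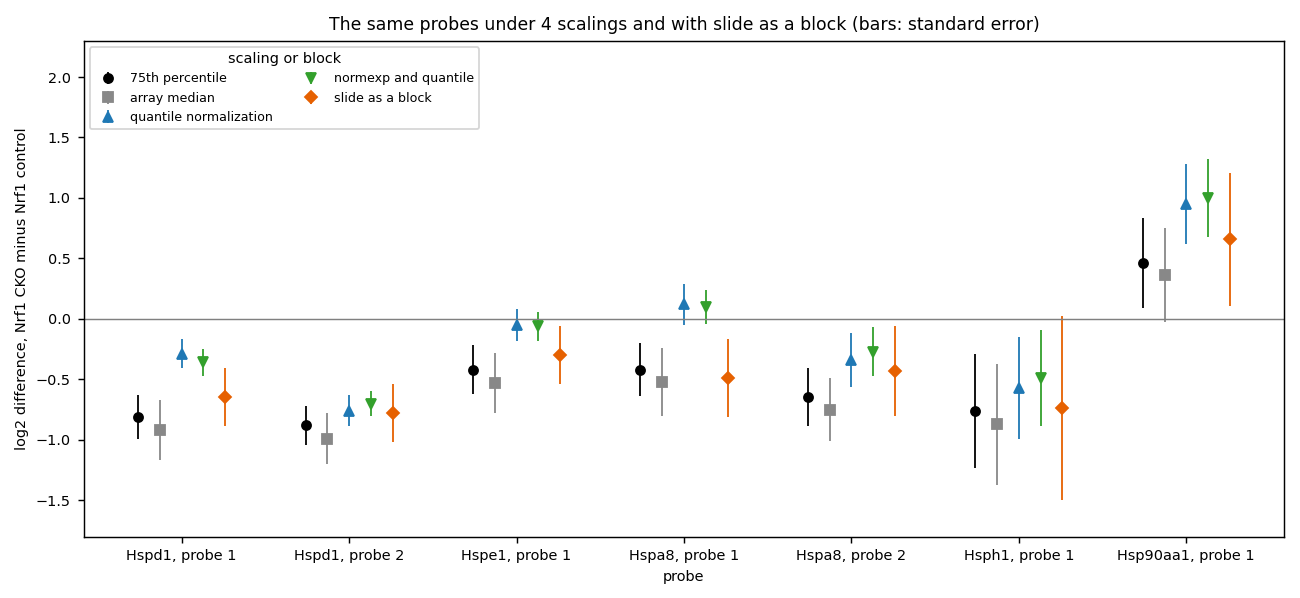
Log2 difference, Nrf1 CKO minus Nrf1 control (vertical axis, bars for the standard error), of 7 probes of 5 of the 10 genes under 4 scalings of the arrays and with slide as a block. Both Hspd1 probes stay below 0 under all 5, from -0.29 to -0.99, while the brighter Hspa8 probe lies at -0.42 and at 0.12.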

How the data were processed

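Per the labels, total RNA of the livers was extracted with Isogen, and 500 ng was labelled with Cy3. Per the file headers, spots were read with Agilent Feature Extraction 10.7.3.1, and the deposited intensities are its processed signal (background-subtracted and detrended, not normalized between arrays), with median raw spot and background intensities and flags beside it. The authors' series table equalled the processed signal at 810324 of 810324 entries. The flags for spots well above background, for outliers and for control type, and the probe names, come with them, per the file headers, as other columns.

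From these, log2 processed signal minus log2 of the array's 75th percentile was computed here, outlier spots left out and spots of a probe averaged. Of 41174 probes, 26718 (64.9%) got a symbol through the RefSeq table. A probe was tested if 1 group or more had it well above background on its 3 arrays, and the brightest such probe stood for a gene. The fit was limma 3.58.1 (R 4.3.3), with a mean for each of the 6 groups (18 arrays, 12 residual and 3.08 prior degrees of freedom), with Benjamini-Hochberg adjustment over all 17721 genes and calls at an adjusted p under 0.05. Each gene had 1 estimate of spread, shared by all 6 groups, so the intervals and calls of a line also reflect the spread in the other lines. The fit was tested on simulated data.

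The 10 genes and the lists were chosen with earlier results of these data known. Named are all 10 genes, up to 4 called genes of each list with the largest change, the 3 genes that check the labels, and the 6 genes most like the 10 by either of 2 measures. Alternatives were other scalings, background corrections, filters, probe rules, weights, blocks and leaving out each array. Those on the separate probes, the lists, the brightness of genes and the Keap1 median were chosen after seeing the data. Groups share slides only in part (7 slides, 4 scan dates), and Nrf2 KO shares none with its control.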

Additional observations from a re-analysis of the deposited data

Results flagged for a closer look

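The effect of Nrf1 CKO on Hspd1, the mitochondrial HSP60, differed from that of Keap1 KD by -0.92 on the log2 scale (SE 0.26, adjusted p = 0.044 for the difference of the effects in limma). The log2 difference was -0.81 in Nrf1 CKO livers and 0.11 in Keap1 KD livers, each against its own controls.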

How the results depend on the processing

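Of 900 values recomputed for the 10 genes under 16 other settings, 0 reversed a call, 8 lost one, 11 gained one and 65 changed sign without a call on either side. Of 540 values with 1 array left out, 9 lost a call and 2 gained one. In Nrf1 CKO livers, 0 genes were called lower after quantile normalization or with slide as a block and 4 with array weights (Hspd1, Hspe1, Hspa8 and Hsph1). With normexp and quantile normalization 1 was called higher (Hsp90aa1), and with single arrays left out 0 to 1 were called lower. For the Nrf1 CKO effect minus the Nrf2 KO effect, 1 was called lower with the mean of all probes, 1 with the arrays of the 2 lines alone, 2 with array weights and 0 to 1 with single arrays left out. There 1 was called higher, Hsp90aa1, with the 2 lines alone and with array weights. For the Nrf1 CKO effect minus the Keap1 KD effect, 0 were called lower after quantile normalization, normexp and quantile normalization, without a filter, with the 2 lines alone, and with slide or scan date as a block. With single arrays left out 0 to 1 were called lower and 0 to 1 higher. The causes were not tested.

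Over all genes, Nrf1 CKO calls were 2094 without a filter, 8168 with array weights and 65 with slide as a block, against 3364. Keap1 KD calls were 54 with the line alone, 55 with slide as a block, 250 with array weights, 258 with scan date as a block, 440 with probes above background on all arrays, 515 with normexp and quantile normalization, 549 with quantile normalization and 614 without a filter, against 984. Nrf2 KO calls ranged from 5 to 74, against 11.

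Pairing of samples by equal replicate numbers was not evident, though 3 arrays a group cannot exclude it. Correlations of same-numbered deviations ran from -0.02 to 0.13 in the Nrf1, -0.08 to 0.05 in the Nrf2 and -0.36 to 0.15 in the Keap1 line. In these lines 2, 1 and 1 of 3 mutant arrays correlated best with their own number. With a replicate block the Nrf1 CKO calls were 3590 over all genes and 1 of the 10 genes lower. The block gave 1 gene called lower, Hspd1, for the Nrf1 CKO effect minus the Nrf2 KO effect. Groups of 3 arrays, and a spread per gene shared by all 6 groups, limited what could be told. The 95% interval of Hspa1b in Nrf1 CKO livers ran from -1.88 to 1.01. Its SD was 0.27 in Nrf1 CKO and 0.44 in Nrf1 control livers. In the other lines it was 0.09 in Nrf2 KO, 1.51 in Nrf2 control, 1.44 in Keap1 KD and 0.68 in Keap1 control livers.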
